A study of Mus musculus with 11 samples.

Results

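The 8 genes described here encode neurexins, neuroligins and calsyntenins, which are adhesion proteins of the synapse. They were chosen by name from these families: the neurexins Nrxn2 and Nrxn3, the neuroligins Nlgn1, Nlgn2 and Nlgn3, and the calsyntenins Clstn1, Clstn2 and Clstn3. All 8 were found in both deposited count tables, among 24391 genes in the heterozygous table and 24015 in the homozygous table, and all 8 passed the filter on low counts. Their RNA was measured by RNA-seq in hippocampus of 11 C57BL/6N mice, dissected from 1 hemisphere, at postnatal day 32 by the study's methods and labelled only as adult. The mice came from 1 line made with Cas9 that lacks 1b, a non-coding regulatory interval of the sodium channel gene Scn1a. A heterozygous round compared 4 1b+/- mice (3 male, 1 female) with 3 male WT mice, and a homozygous round compared 2 1b-/- mice (1 male, 1 female) with 2 female WT mice. The heterozygous round was read paired-end and the homozygous round single-end, so levels were tested only within a round.

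Neurexins sit in the presynaptic membrane and reach across the cleft to neuroligins in the postsynaptic membrane, which hold scaffolds and receptors opposite the release site. Neuroligin 1 is known mainly from excitatory synapses, neuroligin 2 from inhibitory synapses, and neuroligin 3 from both. Calsyntenins carry cadherin repeats. Calsyntenin 1 links vesicles to the kinesin motor, and calsyntenin 3 promotes synapse formation and has been described as a partner of neurexins.

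Scn1a, the targeted gene, had a lower mean in both mutants than in their controls. Its CPM (counts scaled to library size, with TMM factors within a round) were 91.2, 83.4, 96.7 and 119.4 in the 1b+/- libraries and 171, 113, and 123 in their WT controls. The groups overlapped, with a log2 fold change of -0.47 (SE 0.15, adjusted p = 0.303, edgeR's quasi-likelihood test). Without WT replicate 1, the highest, that value was -0.27. In the homozygous round Scn1a stood at 26.3 and 16.7 CPM in the 1b-/- libraries and at 133.8 and 173 CPM in WT, a log2 fold change of -2.83 (SE 0.27, adjusted p = 0.0211, edgeR).

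The libraries held 20667122 to 36145161 counts, and pan-neuronal markers summed to between 6346 and 8321 CPM in all 11. The 2 WT libraries of the homozygous round stood apart from the other 9. Their 13 striatal marker genes summed to 4388 and 10350 CPM, against 411 to 681 CPM elsewhere, and the 5 cholinergic markers of basal forebrain to 43.2 and 100.8 CPM, against at most 11.6 CPM. Marker sums of hippocampal cells were lowest in these same libraries, at 222 to 258 CPM for CA1 (475 to 676 elsewhere), 272 to 301 CPM for CA3 (428 to 861 elsewhere) and 267 to 296 CPM for dentate granule cells (370.1 to 458 elsewhere). Oligodendrocyte markers summed to 16130 and 22200 CPM there and to 11420 and 13180 CPM in 1b-/-. The 1b-/- libraries in turn had the highest CA3 sums, 832 and 861 CPM, against 428 to 588 CPM in the heterozygous round. No marker gene of these lists was at 0 in a whole group. Choroid plexus markers varied widely within groups, from 51.9 to 13260 CPM. Every homozygous comparison below rests on these WT libraries, and what the difference in markers contributed to any of its values was not tested. In bulk tissue, fewer cells of a type and less RNA per cell cannot be told apart.

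In the heterozygous round, thalamus markers summed to 600.6, 175 and 151 CPM in WT replicates 1 to 3 and to 169 to 441 CPM in 1b+/-. WT replicate 1, the highest, is also the library whose removal moved the count of 1b+/- calls most. Striatal markers summed to 411 to 429 CPM in 1b+/- and 449 to 681 CPM in WT, and GABAergic interneuron markers to 1047 to 1122 CPM and 1131 to 1264 CPM, without overlap in either list. The CA1 sums overlapped, at 497 to 586 CPM in 1b+/- and 475 to 545 CPM in WT, and so did those of oligodendrocytes, at 8777 to 10330 and 6124 to 10130 CPM. Their part in the 1b+/- values below was not tested.

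Levels of the 8 genes were compared with each other per kilobase of annotated exon. In WT mice of the heterozygous round Clstn1 was the highest at 244 CPM per kb ± 3.67 (SD, n = 3), followed by Clstn3 at 82.3 ± 3.56, Nlgn2 at 53.1 ± 2.04 and Nrxn2 at 32.9 ± 1.51. Nlgn1 had 27.4 CPM per kb ± 0.934, Clstn2 22.1 ± 0.154, Nrxn3 19.9 ± 1.70 and Nlgn3 11.7 ± 0.477. The ranges of neighbours in this order were separate. They hold the spread between mice only. The annotation used for counting is not given in the sources used here, so the order also rests on the exon lengths chosen. Clstn2, at 22.0 to 22.3 CPM per kb, and Nrxn3, at 18.3 to 21.65, lay closest. The means kept this order in 1b+/- mice but not in the groups of the homozygous round. Clstn2 was seventh in WT mice of the homozygous round, at 10.5 CPM per kb ± 0.614 (SD, n = 2), below Nrxn3 at 18.2 ± 0.958. There Nlgn1, at 17.4 and 19.4 CPM per kb, overlapped with Nrxn3, at 17.5 and 18.9. In 1b+/- mice Clstn2, at 24.8 to 27.7 CPM per kb, overlapped with Nlgn1, at 25.9 to 27.1, and in 1b-/- mice Clstn2, at 23.7 and 27.9, lay above Nlgn1, at 21.0 and 21.6.

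**Figure D1:**
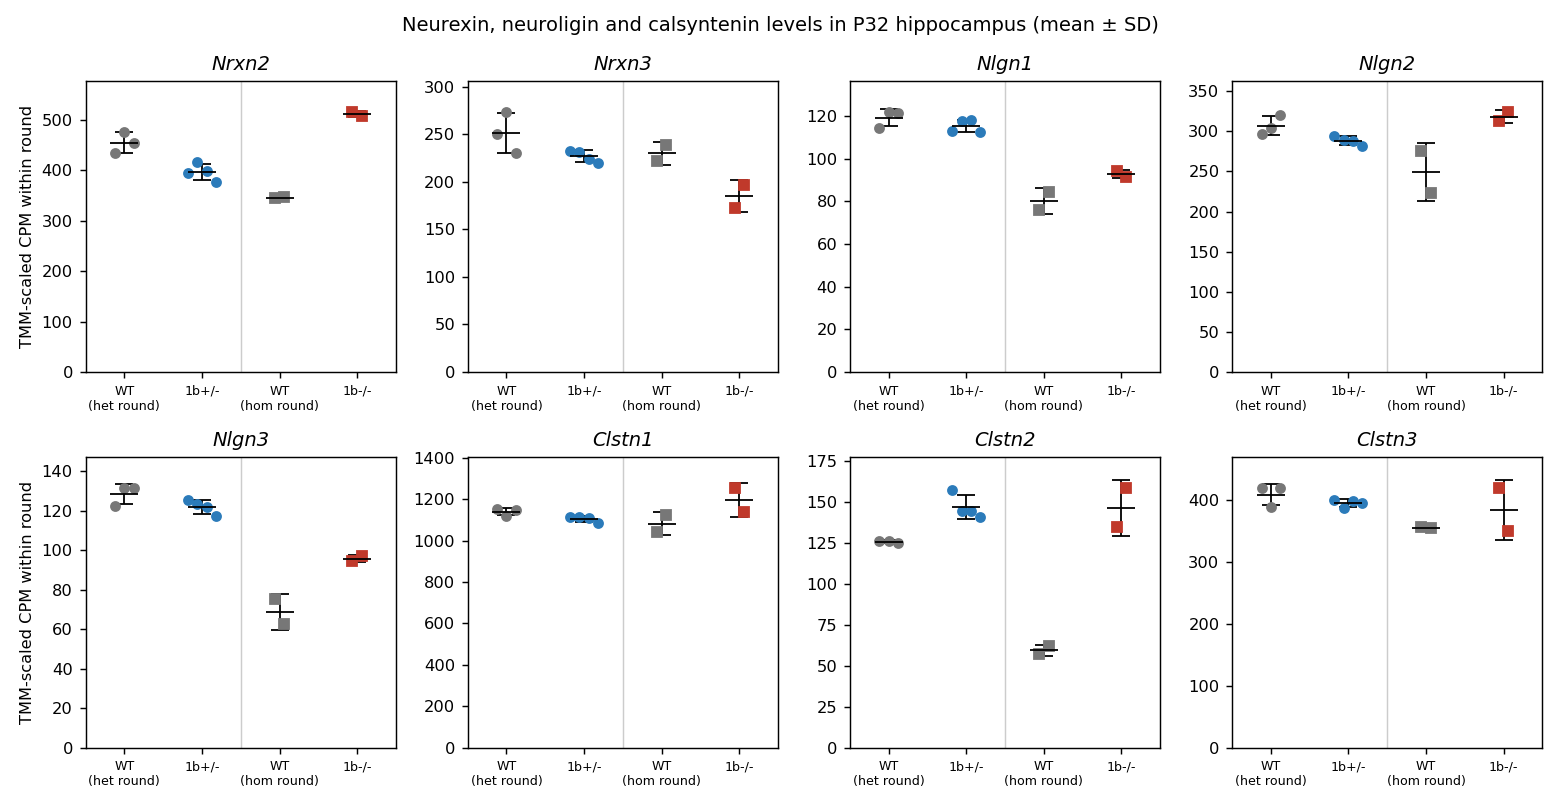
Level of each gene in every library, as TMM-scaled CPM within a round (vertical axes from 0), for the 2 groups of the heterozygous round (circles) and the 2 of the homozygous round (squares); black bars are means ± SD. Clstn2 shows the largest fold between the groups of a round, with WT of the homozygous round at 57.0 and 62.0 CPM and 1b-/- at 134.7 and 158.8 CPM.

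At an adjusted p of 0.05, edgeR's quasi-likelihood test called 0 of the 8 genes in 1b+/- mice and 1 of 8, Clstn2, in 1b-/- mice. Over all genes tested, this test called 0% of 14630 genes in the heterozygous round and 3.58% of 14838 in the homozygous round. Other tests called more, of the 8 genes and of all genes. In 1b+/- mice edgeR's likelihood ratio test called 1 of the 8 (1.31% of all genes) and DESeq2 called 2 (1.67%). In 1b-/- mice these tests called 2 of the 8 each, Clstn2 and Nrxn2, beside 12.3% and 14.4% of all genes. A single fit of all 11 libraries called 6 of the 8 in 1b-/- mice, all but Clstn1 and Clstn3, beside 37.2% of all genes. That fit takes the spread between mice from both rounds together. The common coefficient of variation was 9.13% in the heterozygous round alone, 22.9% in the homozygous round alone and 14.15% in that fit. Its p-values for 1b-/- mice may thus be too small. Within a round, 4 of the 8 genes had an unadjusted p under 0.05 in 1b+/- mice (quasi-likelihood test), 3 lower and 1 higher. There 11.3% of all genes passed. In 1b-/- mice 3 of the 8 had an unadjusted p under 0.05, all higher, where 26.4% of all genes passed. The median log2 fold change of the 8 genes was -0.06 in 1b+/- and 0.28 in 1b-/- mice, and that of all genes was 0.00 in both.

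The groups were also compared library by library. Of the 8 genes, 3 had every 1b+/- library below every WT library (6.25% of all genes) and 1 had every 1b+/- library above (4.69% of all genes). Among the 1b-/- comparisons 6 of 8 had both 1b-/- libraries above both WT libraries and 1 had both below. With so few mice this was common: 29.5% of all genes were higher without overlap, and 30.2% were lower.

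Of the presynaptic members, Nrxn2 lay above and Nrxn3 below WT in 1b-/- mice, and edgeR's quasi-likelihood test called neither. Nrxn2 (ENSMUSG00000033768.9, mm9 chr19:6418731-6544169, plus strand) had 394, 417, 398 and 376 CPM in the 1b+/- libraries and 434, 475 and 453.5 CPM in WT. Every 1b+/- library lay below every WT library, by a log2 fold change of -0.20 (SE 0.05, unadjusted p = 0.0019, adjusted p = 0.171, edgeR's quasi-likelihood test). Without WT replicate 1 of that round its adjusted p was 0.0418 in the same test, which then called 2.89% of all genes. Nrxn2 in the homozygous round was at 514.5 and 507 CPM in 1b-/- and at 344 and 346 CPM in WT. Here the mutants were the higher group, by a log2 fold change of 0.57 (SE 0.12, adjusted p = 0.0736, edgeR's quasi-likelihood test), while DESeq2 gave an adjusted p of 6.2e-04, edgeR's likelihood ratio test 0.0184 and the fit of all 11 libraries 2.8e-04. The gene shares 669 exon bases with Slc22a12, annotated on the opposite strand, and the strand setting of the counting is not given in the sources used here, so a part of its reads is uncertain.

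Nrxn3 (ENSMUSG00000066392.4, chr12:89961320-91573375, plus strand) is the longest of the 8 genes, spanning 1612 kb. It had 233, 231.5, 224 and 219.6 CPM in the 1b+/- libraries and 250.5, 273 and 230.5 CPM in WT. One WT library fell within the 1b+/- range, and the log2 fold change was -0.15 (SE 0.06, adjusted p = 0.358, edgeR). It was -0.08 without WT replicate 2, the highest, and -0.21 without WT replicate 3. The 1b-/- libraries, at 173 and 197 CPM, lay below WT of their round, at 221.5 and 239 CPM. The log2 fold change was -0.31 (SE 0.13, adjusted p = 0.206 by edgeR's quasi-likelihood test and 0.0176 in the fit of all 11 libraries), so Nrxn3 was the only one of the 8 genes with a negative value in 1b-/- mice.

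The neuroligins lay close to their controls in 1b+/- mice and above them in 1b-/- mice, and edgeR's quasi-likelihood test within a round called none of them. The fit of all 11 libraries called all 3 in 1b-/- mice (adjusted p = 0.0382 for Nlgn1, 0.0119 for Nlgn2 and 0.0020 for Nlgn3, edgeR). That fit also called 37.2% of all genes, and its spread was taken from both rounds together. Nlgn1 (ENSMUSG00000063887.6, chr3:25330733-26032656, minus strand) had 113, 117.5, 118 and 113 CPM in 1b+/- and 114.6, 122 and 121.5 CPM in WT, overlapping ranges with a log2 fold change of -0.05 (95% interval -0.14 to 0.04, edgeR). The homozygous round had 94.3 and 91.6 CPM in 1b-/- and 75.8 and 84.4 CPM in WT, a log2 fold change of 0.21 (95% interval -0.09 to 0.52, adjusted p = 0.312, edgeR). Both intervals include 0.

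Nlgn2 (ENSMUSG00000051790.8, chr11:69636624-69651286, minus strand), known from inhibitory synapses, is the shortest of the 8 genes, at 14.7 kb. It had 295, 289.8, 288 and 282 CPM in the 1b+/- libraries and 297, 304 and 320.1 CPM in WT. These ranges were separate by a narrow margin, with a log2 fold change of -0.09 (SE 0.04, unadjusted p = 0.0377, adjusted p = 0.404, edgeR). The 1b-/- libraries had 313 and 324 CPM and their WT controls 275 and 224 CPM, a log2 fold change of 0.35 (SE 0.15, adjusted p = 0.212, edgeR). The WT pair was far apart, and the value was 0.51 without WT replicate 1 and 0.21 without WT replicate 2.

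Nlgn3 (ENSMUSG00000031302.9, chrX:98491178-98521302, plus strand) is X-linked and shares 749 exon bases with Med12 on the same strand. How reads in these bases were assigned is uncertain. Its 1b+/- libraries had 125.6, 123.5, 122 and 117 CPM, overlapping with WT at 122, 131.6 and 131 CPM (log2 fold change -0.07, SE 0.04, adjusted p = 0.559, edgeR). Values of 94.5 and 97.1 CPM in 1b-/- stood above their WT controls at 75.4 and 62.5 CPM. That was a log2 fold change of 0.47 (SE 0.14, unadjusted p = 0.0174, adjusted p = 0.116, edgeR), and 0.49 with sex in the model. The sex term of this round in effect leaves out 1b-/- replicate 1, its only male.

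Clstn2 was the only calsyntenin that passed the test in either comparison. Promoter sequences of all 3 are given to show how the start of Clstn2 compares with those of its relatives. They are from RefSeq on GRCm38.p6, another build than the mm9 of the counts, and run 5′ to 3′ on the gene's strand from 250 bases before the annotated start to 50 after it. Capitals mark matches to TGACGTCA, the cAMP response element (CRE), and to GGGCGG, the GC box, on either strand. For Clstn3 the upstream of its 2 listed starts is shown.
Clstn2, chr9:98033118-98033417, minus strand: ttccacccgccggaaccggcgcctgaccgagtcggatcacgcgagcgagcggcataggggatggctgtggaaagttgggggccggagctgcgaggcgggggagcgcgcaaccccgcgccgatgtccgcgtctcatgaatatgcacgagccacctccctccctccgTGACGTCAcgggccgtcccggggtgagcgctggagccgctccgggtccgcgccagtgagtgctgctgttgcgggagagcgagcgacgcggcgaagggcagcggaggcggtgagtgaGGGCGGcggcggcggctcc
Clstn1, chr4:149586218-149586517, plus strand: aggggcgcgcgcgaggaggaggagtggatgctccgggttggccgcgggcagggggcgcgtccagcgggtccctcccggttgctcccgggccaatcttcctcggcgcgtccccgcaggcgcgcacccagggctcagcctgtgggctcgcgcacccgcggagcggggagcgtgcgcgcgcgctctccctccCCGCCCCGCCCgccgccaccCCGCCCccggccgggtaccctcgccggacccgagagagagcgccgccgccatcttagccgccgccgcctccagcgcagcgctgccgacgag
Clstn3, chr6:124464735-124465034, minus strand: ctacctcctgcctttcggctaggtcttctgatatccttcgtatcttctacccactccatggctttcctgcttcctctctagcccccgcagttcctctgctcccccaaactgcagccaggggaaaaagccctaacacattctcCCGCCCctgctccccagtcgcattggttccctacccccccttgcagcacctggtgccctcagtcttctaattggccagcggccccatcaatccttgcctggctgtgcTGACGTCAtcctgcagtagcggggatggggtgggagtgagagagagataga
Of the windows shown, those of Clstn2 and Clstn3 hold a CRE and that of Clstn1 does not. The window of the other listed Clstn3 start, not shown, held neither a CRE nor a GC box. With 0 at the annotated start, the CRE begins at -85 in Clstn2 and at -1 in Clstn3. A CRE was found in 1.79% of 32841 promoters of this length. All 3 windows hold a GC box, 3 in Clstn1, of which 2 overlap by 1 base, and 1 each in Clstn2 and Clstn3, while 35.7% of all promoters hold one. Clstn1 and Clstn2 have GC contents of 79.7% and 72.7% with 48 and 43 CpG dinucleotides, Clstn3 has 58.3% with 8, and the medians over all promoters were 52.7% and 7. Searches for CACGTG, the E-box, and TATAAA, the TATA motif, found no match in any of these 3 windows, and 7.15% and 13.6% of all promoters hold them. Of the 8 genes, 6 had a promoter in the RefSeq table.

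Clstn2 (ENSMUSG00000032452.6, mm9 chr9:97344814-97933600, minus strand) had 158, 144.4, 144.7 and 141 CPM in the 1b+/- libraries and 126.6, 126, and 125 CPM in WT. All 4 1b+/- libraries lay above all 3 WT libraries. The log2 fold change was 0.22 (SE 0.04, 95% interval 0.12 to 0.32, unadjusted p = 7.1e-04), and its adjusted p of 0.122 missed the threshold in edgeR's quasi-likelihood test, while DESeq2 gave 0.0034 and edgeR's likelihood ratio test 0.0308. Clstn2 was the only one of the 8 genes with a higher mean in 1b+/- than in WT mice. In the homozygous round it had 134.7 and 158.8 CPM in 1b-/- and 57.0 and 62.0 CPM in WT, from 4741 and 5067 counts against 1263 and 1324. It rose 2.47-fold, a log2 fold change of 1.30 (SE 0.14, 95% interval 0.96 to 1.65, adjusted p = 0.0223, edgeR). Without WT replicate 1 the value was 1.25 (adjusted p = 0.101) and without WT replicate 2 it was 1.36 (adjusted p = 0.0632), both from edgeR fits in which the lone WT library is assumed to vary like the 1b-/- pair. Those fits called 0% and 1.31% of all genes, and Scn1a itself had adjusted p-values of 0.101 and 0.0601 in them.

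Levels of Clstn2 were also scaled over all 11 libraries, where the rounds differ in read type and no test was made. The means were 129 CPM in WT of the heterozygous round, 150.9 in 1b+/-, 143.5 in 1b-/- and 58.6 in WT of the homozygous round. For Nrxn2 the corresponding means, in the same order of groups, were 466.5, 407, 499.7 and 339 CPM, and for Nlgn2 315, 296, 311.5 and 245 CPM. In these 3 genes, and in every other gene of the set except Nrxn3, the mean of WT in the homozygous round was the lowest of the 4. Nrxn3, with 258, 233, 181 and 226 CPM, was lowest in 1b-/- mice. Nlgn3 had 132, 125, 93.7 and 67.9 CPM and Nlgn1 122.5, 118.5, 90.9 and 78.8 CPM, so that both groups of the homozygous round were below both groups of the heterozygous round. The means were 1169, 1134, 1170.0 and 1065 CPM for Clstn1 and 419.8, 406, 376 and 349 CPM for Clstn3.

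**Figure D2:**
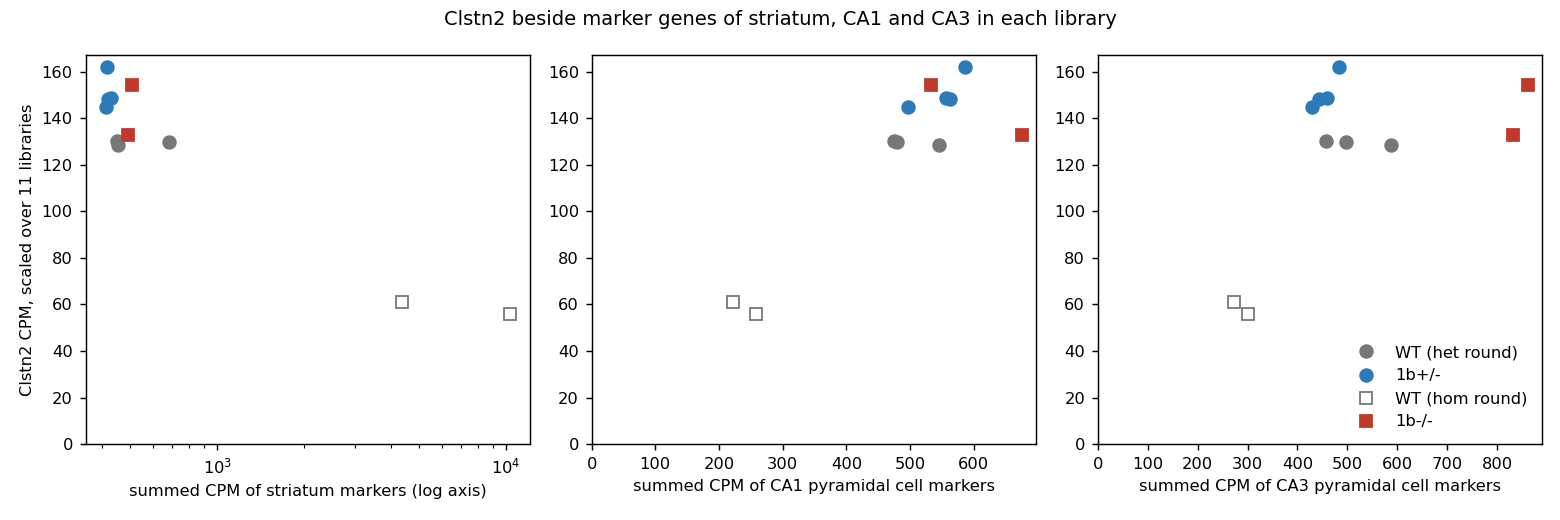
Clstn2 CPM in each library, scaled over 11 libraries (vertical axes from 0), against the summed CPM of striatum (log axis), CA1 and CA3 markers; circles are the heterozygous and squares the homozygous round, open squares being its WT. The 2 open squares lie alone, with Clstn2 near 58.6 CPM, striatal sums of 4388 and 10350 and the lowest CA1 and CA3 sums.

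Clstn1 and Clstn3 were called in neither comparison. Clstn1 (ENSMUSG00000039953.7, chr4:148960577-149023008, plus strand) had 1112, 1114, 1107 and 1085 CPM in 1b+/- and 1150, 1119 and 1147 CPM in WT. The 1b+/- libraries were all below WT, yet by a log2 fold change of only -0.04 (SE 0.03, adjusted p = 0.659, edgeR). In the homozygous round it had 1254 and 1137 CPM in 1b-/- and 1043 and 1121 CPM in WT, a log2 fold change of 0.14 (95% interval -0.26 to 0.55, edgeR). Clstn3 (ENSMUSG00000008153.5, chr6:124380777-124414812, minus strand) overlapped in both rounds. It had 400.4, 387, 397.5 and 395 CPM in 1b+/- against 419, 388 and 418.5 CPM in WT, and 419 and 350.2 CPM in 1b-/- against 356 and 354 CPM in WT. Its log2 fold changes were -0.05 (95% interval -0.13 to 0.04) and 0.12 (95% interval -0.25 to 0.48). The latter was -0.02 with sex in the model, which in the homozygous round in effect leaves out 1b-/- replicate 1, the only male.

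**Figure D3:**
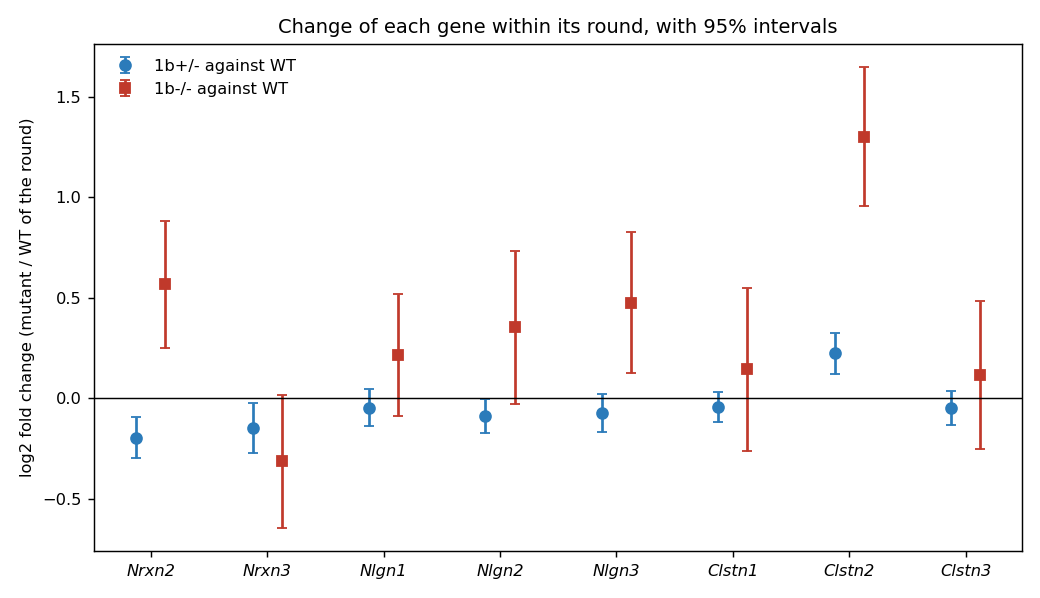
Log2 fold change of each gene against WT of its own round (vertical axis), with 95% intervals from edgeR's quasi-likelihood fit; blue circles are 1b+/- and red squares 1b-/-. The intervals of 1b-/- are the wider, and Clstn2 is the only gene whose 2 intervals both lie above 0, from 0.12 to 0.32 and from 0.96 to 1.65.

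Whether a gene changed differently in the 2 genotypes was tested with 1 contrast over all 11 libraries, the 1b-/- change minus the 1b+/- change, over 14905 genes. Of the 8 genes 4 passed an adjusted p of 0.05, where 27.3% of all genes passed. Clstn2 had a difference in log2 fold change of 1.07 (SE 0.11, adjusted p = 1.7e-04, edgeR's quasi-likelihood test) and Nrxn2 one of 0.76 (SE 0.09, adjusted p = 4.2e-04, edgeR). Nlgn3 followed with 0.54 (SE 0.11, adjusted p = 0.00475) and Nlgn2 with 0.43 (SE 0.11, adjusted p = 0.0160), both by edgeR. Nlgn1 missed the threshold at 0.25 (95% interval 0.06 to 0.45, adjusted p = 0.0513, edgeR). The difference was -0.17 for Nrxn3 (95% interval -0.42 to 0.08), 0.18 for Clstn1 (-0.03 to 0.39) and 0.16 for Clstn3 (-0.08 to 0.40). Without 1b-/- replicate 1 the difference was 0.095 for Clstn1 and 0.010 for Clstn3. Without 1b-/- replicate 2 it was 0.26 for Clstn1 and 0.29 for Clstn3, the latter with an adjusted p of 0.0420, where 23.6% of all genes passed (edgeR). The 1b-/- term of each difference again rests on the WT libraries with striatal and cholinergic marker RNA, and genotype and round cannot be told apart in it. The fit of all 11 libraries also took the spread between mice from both rounds together. Its SEs for Clstn2 and Nrxn2 were below those of the 1b-/- change alone, 0.14 and 0.12. The p-values of the differences may thus be too small.

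Ratios of relatives within 1 library do not depend on library scaling, and 4 were compared with two-sided exact permutation tests, with p adjusted over the 8 tests. The log2 ratio of Clstn2 to Clstn1 was -2.82, -2.95, -2.94 and -2.94 in the 1b+/- libraries and -3.18, -3.15 and -3.20 in WT, with all 1b+/- values above all WT values. The mean difference was 0.27, with an exact permutation p of 0.0286, the smallest that 4 mice against 3 allow, and an adjusted p of 0.229. Its values in the homozygous round were -3.22 and -2.84 in 1b-/- and -4.19 and -4.18 in WT. That difference of 1.16 had an exact p of 0.333, the smallest that 2 mice against 2 allow.

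The ratio of Nrxn3 to Nrxn2 was the other one with separate groups in the homozygous round. There the log2 ratio was -1.57 and -1.36 in 1b-/- and -0.63 and -0.54 in WT, a difference of -0.88 (exact permutation p = 0.333). In the heterozygous round it ranged from -0.85 to -0.76 in 1b+/- and from -0.98 to -0.79 in WT, a difference of 0.05 (exact permutation p = 0.486). The log2 ratio of Nlgn2 to Nlgn1 differed by -0.04 in 1b+/- mice (exact permutation p = 0.257) and by 0.14 in 1b-/- mice (exact permutation p = 1). That of Clstn3 to Clstn1 differed by -0.0046 (exact permutation p = 0.914) and -0.03 (exact permutation p = 0.667). In each of these 4 comparisons the ranges of the groups overlapped.

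**Figure D4:**
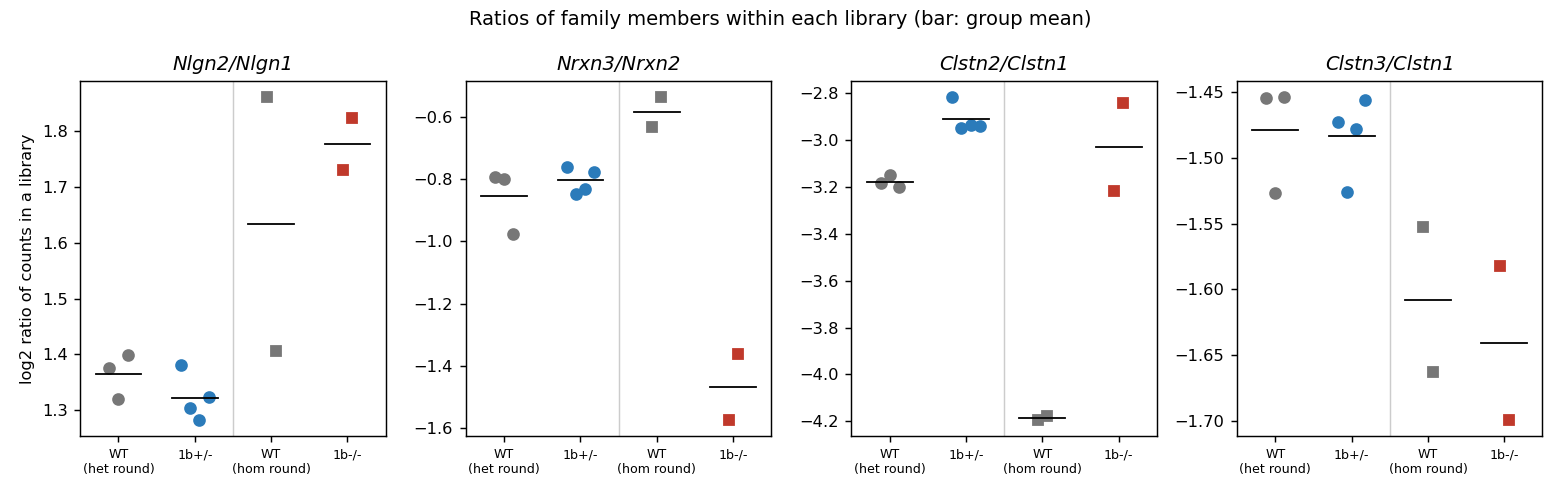
Log2 ratio of counts of a pair of genes in each library (vertical axes, not from 0), by group, with a bar at the group mean; circles are the heterozygous and squares the homozygous round. Clstn2 to Clstn1 is separate between genotypes in both rounds, and Nrxn3 to Nrxn2 in the homozygous round.

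The 71 partner genes around these families were counted by role, from receptors that sit beside neurexins to scaffolds and motors inside the cell. In 1b+/- mice 0 of 71 passed an adjusted p of 0.05 by edgeR's quasi-likelihood test, beside 0% of all genes. The likelihood ratio test called 1 (1.31% of all genes) and DESeq2 1 (1.67%). At an unadjusted p under 0.05 in the quasi-likelihood test there were 15, 7 lower and 8 higher, beside 11.3% of all genes. The 3 with the smallest p were Lrrtm3, Lin7a and Il1rap. Lrrtm3, a postsynaptic ligand of neurexins, had 27.7, 27.1, 27.4 and 29.4 CPM in 1b+/- and 32.1, 35.1 and 33.2 CPM in WT, separate ranges with a log2 fold change of -0.26 (SE 0.05, adjusted p = 0.121, edgeR). Lin7a, a scaffold protein of the complex formed with Cask, had a log2 fold change of -0.16 and Il1rap, a postsynaptic ligand of receptor phosphatases, one of 0.25 (adjusted p = 0.268 for both, edgeR).

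Of the 71 partner genes 8 were called in 1b-/- mice by edgeR's quasi-likelihood test, 6 higher and 2 lower, beside 3.58% of all genes. At an unadjusted p under 0.05 there were 37, 17 lower and 20 higher, beside 26.4% of all genes. The likelihood ratio test called 26, beside 12.3% of all genes, and DESeq2 27, beside 14.4%. By role, the quasi-likelihood test called 1 of 12 presynaptic receptors, 3 of 24 postsynaptic adhesion proteins, 2 of 12 secreted bridging proteins and 0 of 4 receptors of bridging proteins. It also called 1 of 4 modulators and proteases and 1 of 15 scaffolds and motors. C1ql2, a secreted protein of mossy fibre synapses that binds neurexins and is also on the dentate granule marker list, had 71.7 and 79.0 CPM in 1b-/- and 1.85 and 1.78 CPM in WT (log2 fold change 5.37, SE 0.16, adjusted p = 0.0030, edgeR). Mdga1, which blocks the binding of neuroligin 2 to neurexins, had 91.2 and 103.6 CPM against 21.95 and 23.9 CPM (log2 fold change 2.09, SE 0.14, adjusted p = 0.0190, edgeR). The mean of both in WT mice of the heterozygous round, scaled over all libraries, was 36.1 CPM for C1ql2 and 74.1 CPM for Mdga1, against 1.79 and 22.6 CPM in WT mice of the homozygous round.

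The other partner genes that passed in 1b-/- mice had absolute log2 fold changes from 0.70 to 1.19. Lrrtm1, a postsynaptic ligand of neurexins, had a log2 fold change of 1.19 (adjusted p = 0.0347, edgeR), and Tenm2, a teneurin that binds latrophilins, one of 1.11 (adjusted p = 0.0372, edgeR). Slitrk3, a ligand of receptor phosphatases at inhibitory synapses, had 0.83 (adjusted p = 0.0382, edgeR) and Lgi1, a secreted ligand of Adam22, had 0.70 (adjusted p = 0.0494, edgeR). The 2 lower genes were Lrrtm2, which also binds neurexins, with 61.1 and 61.3 CPM in 1b-/- against 97.7 and 113 CPM in WT (log2 fold change -0.78, adjusted p = 0.0461, edgeR), and Kif5b, a heavy chain of the kinesin motor, with 197.5 and 178 CPM against 306 and 318 CPM (log2 fold change -0.73, adjusted p = 0.0498, edgeR). Lrrtm1 and Lrrtm2, close relatives, thus had opposite signs. In the homozygous round 1b-/- replicate 1 was the only male, so the sex term in effect leaves that library out. With sex in the model Slitrk3 (log2 fold change 0.88), Lrrtm2 (-0.78), Lgi1 (0.75) and Kif5b (-0.81) were no longer called. Nor was any of these 4 called in the fits without 1 library (edgeR). Tenm2 was not called in 3 of those 4 fits, Lrrtm1 in the fits without a WT library, and C1ql2 and Mdga1 in the fit without WT replicate 1. For Lrrtm2 the WT means scaled over all libraries were 103.5 CPM in the homozygous and 101 CPM in the heterozygous round, and that of 1b-/- was 59.9 CPM. Kif5b was lower in both groups of the homozygous round, at 307 and 184 CPM, than in WT mice of the heterozygous round, at 444 CPM.

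**Figure D5:**
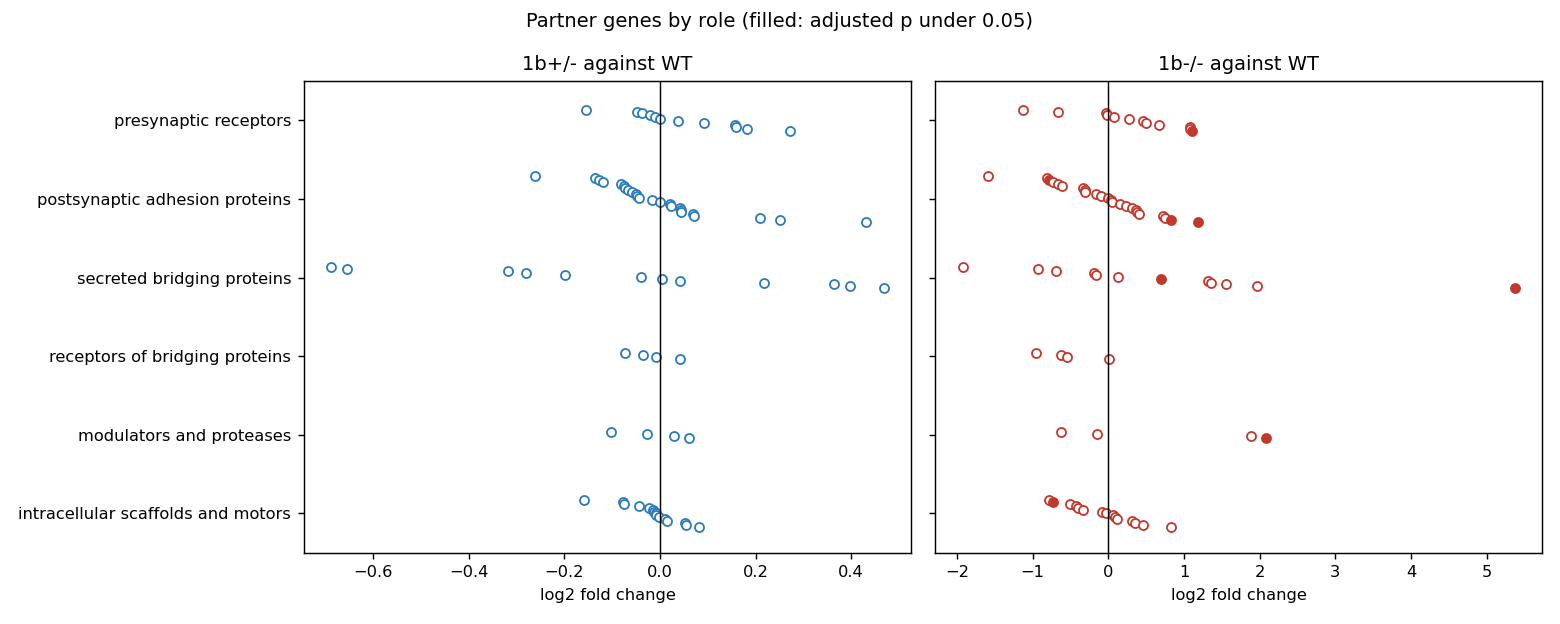
Log2 fold change of each of 71 partner genes (horizontal axes, with different ranges) by role, in 1b+/- mice on the left and 1b-/- mice on the right; filled points have an adjusted p under 0.05. No point is filled in 1b+/- mice and 8 are filled in 1b-/- mice, of which C1ql2 at 5.37 is the farthest right.

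Each of the 8 genes was also matched with the gene whose values over the 11 libraries lay nearest to its own, among the other 7 and 68 partner genes, 75 in all. The 3 latrophilin genes were left out because the tables give them different symbols. The measure was the root-mean-square difference of log2(CPM + 1) after the mean of each round was taken out, with 0 for identical values. It grows with how much a gene varies, so each distance is given with the root-mean-square variation of the gene itself. Nlgn2 and Nlgn3 were nearest to each other, at 0.0412, with variations of 0.131 and 0.158. Clstn1 and Clstn3 were also nearest to each other, at 0.0427, but varied by only 0.0619 and 0.0751. Nlgn1 (0.0795) was nearest to Clstn1, at 0.0450. The nearest to Nrxn2 (0.190) was Ptprs, a presynaptic receptor phosphatase, at 0.0840. Kif5c, a kinesin heavy chain, was nearest to Nrxn3 (0.133), at 0.0687. Clstn2, which varied most among the 8 at 0.400, was nearest to Tenm2, at 0.162.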

How the data were processed

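The authors deposited raw read counts per gene, in 1 table for each round of hippocampus libraries (11 in all). Stranded mRNA reads were aligned to mm9 with STAR 2.7.2, per the submitters' processing notes, and counted with featureCounts, with no normalization. The strand setting and annotation are not given in the sources used here. Symbols turned into dates, 27 per table, were kept within a round.

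Genes reaching 1 CPM in any library were tested with edgeR 4.0.16 in R 4.3.3 (TMM factors, glmQLFit, glmQLFTest, genotype as the term), with Benjamini-Hochberg adjustment over all genes and a threshold of 0.05. The contrast of both genotypes took all libraries and the genes in both tables. An SE is the absolute log2 fold change over the square root of F, and 95% intervals use the t distribution. The 8 genes had at least 1263 counts in every library, so the spread between samples limited precision. Coordinates and exon lengths are from GENCODE vM1. Replicates of a group differed by a chi-square per gene of 6.20 to 82.2. Each library is 1 mouse by the study's text. The code was tested on simulated counts.

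The 8 genes, the partner and marker lists and the rule for named genes were chosen with earlier results of these data known. The rule named the 8 genes, Scn1a, the partner genes past the threshold, in any case the 3 with the smallest p, and each gene's nearest pattern. The alternatives were a likelihood ratio test in edgeR, DESeq2 1.42.0, scaling by RLE or upper quartiles, filterByExpr or no filter, a sex term, a joint fit of both rounds, and leaving out single libraries. Within a round the sex term rests on a single mouse, the only 1b-/- male or the only 1b+/- female.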

Additional observations from a re-analysis of the deposited data

Results flagged for a closer look

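In 5 genes the difference between the genotypes' log2 fold changes, 1b-/- minus 1b+/-, passed edgeR's test of that difference at an adjusted p of 0.05. It was 1.07 for Clstn2, 0.76 for Nrxn2, 0.54 for Nlgn3, 0.43 for Nlgn2 and -2.36 for Scn1a. The 1b-/- term of each was measured against WT libraries with high striatal marker sums, and the spread was taken from both rounds together.

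Among the 4 1b+/- libraries, 3 of 24 sets of values had 1 library far from the other 3 by Dixon's criterion, and chance flags about 1 in 20. Mdga1 was at 59.0 CPM in 1b+/- replicate 4, the female, against 79.8 to 81.1 CPM in the males. Tenm2 was at 218.5 CPM in the same library, against 232 to 234.5 CPM. The log2 ratio of Clstn2 to Clstn1 was -2.82 in 1b+/- replicate 1, against -2.95 to -2.94 in the others, and all 4 were above the WT values.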

How the results depend on the processing

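In 1b+/- mice, edgeR's likelihood ratio test called 1 of the 8 genes (Clstn2, adjusted p = 0.0308) and 1 of 71 partner genes, beside 1.31% of all genes, and DESeq2 called 2 (Clstn2, adjusted p = 0.0034, and Nrxn2, adjusted p = 0.0147) and 1, beside 1.67%. Leaving out each library in turn gave 0 to 1 of the 8 genes and 0 to 4 partner genes, with both highest counts without WT replicate 1 (2.89% of all genes). In 1b-/- mice, the likelihood ratio test called 2 of the 8 genes (Clstn2 and Nrxn2, the latter at an adjusted p of 0.0184) and 26 partner genes beside 12.3% of all genes, DESeq2 2 (Nrxn2 at 6.2e-04) and 27 beside 14.4%, and 1 fit of all 11 libraries 6 and 41 beside 37.2%. Without a filter 16 partner genes were called beside 5.42% of all genes. Leaving out each library gave 0 to 1 of the 8 genes, with 0 without either WT library, and 0 to 6 partner genes, with 0 without WT replicate 1 and 3 without WT replicate 2, fits that called 0% and 1.31% of all genes. The fit of all 11 libraries took its spread from both rounds together, and the cause of these shifts was not tested. The count of differences between genotypes, 4, stayed between 4 and 5, in fits that all took their spread from both rounds together.

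In the homozygous round the sex term in effect leaves out 1b-/- replicate 1, the only male. The 1b-/- log2 fold change of Clstn3 was -0.019 with sex as a covariate and ranged from -0.018 to 0.239 over the fits without 1 library. Differences in 4 log2 ratios also changed sign in such fits. They ranged from -0.0088 to 0.083 for Nrxn3 to Nrxn2 and from -0.029 to 0.0096 for Clstn3 to Clstn1 in 1b+/- mice, and from -0.084 to 0.371 for Nlgn2 to Nlgn1 and from -0.091 to 0.026 for Clstn3 to Clstn1 in 1b-/- mice. For Clstn2 to Clstn1 in 1b+/- mice the range was 0.23 to 0.28, all above 0. Of 594 single-gene and ratio values under an alternative, 525 kept their direction and side of the threshold. For ratios the side was fixed in advance, because no exact permutation p could fall under 0.05 in these alternatives. Only their direction could change. Clstn2 to Clstn1 in 1b+/- mice therefore counted as weaker in all 8 of its alternatives.

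No paired analysis was possible because the labels give no replicate numbers that tie mutant to WT mice. With 2 mice a group in the homozygous round, the smallest exact p is 0.333.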
